A study of Mus musculus with 24 samples.

Results

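The H3K27ac peak lists of 3 kinds of Prrx1-deleted mouse fibroblasts were compared with one another, to find which loci still distinguished the cell types without this transcription factor, and whether the deleted lists were more or less alike than the 3 wild-type (WT) lists. The members were the 3 lists labelled SG, of 24 samples in the series, 17 of which had a peak list. They held 147680 summits, 43019 in mouse embryonic fibroblasts (MEF), 61603 in cancer-associated fibroblasts of MMTV-PyMT mammary tumours (MMTV-CAF) and 43058 in fibroblasts isolated from dorsal skin wounds at day 10 (Wound). A summit is the position of highest enrichment in a peak. Summits lying within 500 bp of each other were taken as the same site, which gave 84655 SG sites in all and 72715 WT sites.

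MEF came from C57BL/6 embryos at E10-13, Wound fibroblasts from C57BL/6 mice and MMTV-CAF from FVB/NJ mice, and E6 and E7 of a papillomavirus had been used to immortalise every line. In SG cells Prrx1 was targeted by CRISPR/Cas9 with a guide RNA against its first exon, and WT cells carried the control guide SgNS. Whether an SG line was a clone or a pool is not given in the sources used here. The study checked the guide by western blot, and those values were not used here. The H3K27ac lists cannot check the deletion: within Prrx1 and 10 kb to either side there were 16, 27 and 12 summits in MEF, MMTV-CAF and Wound SG, against 17, 26 and 12 in WT. A further MEF line, labelled KI, is called C57BL/6 in its strain label, whereas the growth protocol gives mutant embryos as 129S-Prrx1tm1Jfm/Mmmh. It was used only where named. Each group was 1 library, so no test between groups was run, and the intervals below are 95% intervals for counting error over sites or genes alone. The study describes its Prrx1 ChIP as repeated, and 1 list per type was used here.

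Acetylation of histone H3 at lysine 27 (H3K27ac) marks active enhancers and promoters, and trimethylation at lysine 4 (H3K4me3) marks promoters. Promoters are to a large part shared between cell types, whereas the enhancers between them differ and carry much of a cell's identity. Fibroblasts keep a record of where in the body they arose in the activity of Hox, T-box, Meis, Pbx and other homeobox genes. Prrx1 is itself a homeobox factor of limb, body wall and head mesenchyme.

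The labels were checked against markers in SG. Of 10 fibroblast markers, 8, 9 and 8 had an H3K27ac summit in MEF, MMTV-CAF and Wound. Fap had 0 in all 3, and Lum had 0 in MEF and Wound. The 4 skeletal myogenic and 3 glial markers had 0 summits in every list, as had the immune markers Ptprc and Lyz2 and the epithelial markers Epcam and Krt5. Some markers of other cells did carry summits: 4, 5 and 4 of 8 epithelial markers, 3, 2 and 3 of 5 endothelial markers and 2, 2 and 2 of 4 immune markers in the same order. For 5 pericyte and smooth muscle markers the number was 4 in each type, and for 3 adipocyte markers it was 2, 3 and 1. Their part in the differences below was not tested. The lines also differed at sex-linked genes: MMTV-CAF alone was marked at Xist, with 2 H3K27ac summits within 2 kb in SG and 1 in WT, and the Y chromosome held 3 summits each in MEF SG and Wound SG and 0 in MMTV-CAF SG. Strain, and whatever else differed between the lines, cannot be told apart from cell type here.

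The strongest sites listed in 1 type only are shown first as sequence, and most sites of that kind were much weaker, as given below. Each lay in 1 type's list only, in SG and in WT. It was ranked within its type by the −log10 p of the SG summit, the peak caller's measure of enrichment over input. Such a site had no summit of another type within 500 bp, but other types could have summits further off. The stretch of Vmp1 around its site held 14, 9 and 8 SG summits in MEF, MMTV-CAF and Wound. The MEF site in an intron of Vmp1 had a −log10 p of 144 in SG and 99.0 in WT, and the one in an intron of Sh3pxd2a had 122 and 68.4. The second-ranked MEF site lies in a UTR and is not printed. In MMTV-CAF, an intergenic site on chromosome 5, 47.1 kb from the nearest start site (Gm10062), had 112 and 36.2, and one 2.78 kb from the start of Hoxc9 had 97.6 and 102. In Wound, a site in an intron of Eif4ebp1, which encodes a translation repressor, had 84.7 and 47.8. Each stretch is 201 bases of mm9, plus strand, read 5′ to 3′ with the summit in the middle. Capitals mark matches, on either strand, to 12 short words of transcription factor families that are spelled out further on.
MEF, Vmp1 intron, chr11:86399852-86400052: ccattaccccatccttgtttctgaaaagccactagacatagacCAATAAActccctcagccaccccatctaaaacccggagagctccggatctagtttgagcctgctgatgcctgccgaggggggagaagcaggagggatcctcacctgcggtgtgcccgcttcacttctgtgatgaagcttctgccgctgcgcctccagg
MEF, Sh3pxd2a intron, chr19:47388699-47388899: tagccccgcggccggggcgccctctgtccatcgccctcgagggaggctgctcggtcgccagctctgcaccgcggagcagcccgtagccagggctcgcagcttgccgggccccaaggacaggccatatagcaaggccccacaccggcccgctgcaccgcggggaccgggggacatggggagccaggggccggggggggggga
MMTV-CAF, intergenic, chr5:25119922-25120122: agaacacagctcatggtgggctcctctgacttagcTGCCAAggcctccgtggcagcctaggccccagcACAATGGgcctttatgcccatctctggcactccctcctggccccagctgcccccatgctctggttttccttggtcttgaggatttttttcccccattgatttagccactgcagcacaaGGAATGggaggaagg
MMTV-CAF, near Hoxc9, chr15:102803991-102804191: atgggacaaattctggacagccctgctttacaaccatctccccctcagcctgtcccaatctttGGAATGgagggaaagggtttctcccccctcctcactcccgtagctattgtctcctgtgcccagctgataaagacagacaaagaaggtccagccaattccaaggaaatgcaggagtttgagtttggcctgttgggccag
Wound, Eif4ebp1 intron, chr8:28372508-28372708: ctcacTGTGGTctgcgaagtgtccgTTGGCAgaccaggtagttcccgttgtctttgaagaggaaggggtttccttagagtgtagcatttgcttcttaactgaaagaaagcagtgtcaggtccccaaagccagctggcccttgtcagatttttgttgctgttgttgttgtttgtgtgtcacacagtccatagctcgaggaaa

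The SG lists were less alike than the WT lists. Likeness was measured as the site Jaccard, the number of sites in both lists over the number in either. MEF and MMTV-CAF had a Jaccard of 0.351 in SG and 0.397 in WT, a difference (SG minus WT) of -0.0460 (-0.0511 to -0.0410). For MEF and Wound it was 0.400 against 0.418, a difference of -0.0182 (-0.0239 to -0.0124). For MMTV-CAF and Wound it was 0.329 against 0.345, a difference of -0.0157 (-0.0207 to -0.0107). In each pair the deleted cells shared a smaller part of their sites, and in both genotypes MEF and Wound were the most alike pair of full lists. With summits shared within 1 kb the difference was 0.00256 for MEF and Wound and -0.00604 for MMTV-CAF and Wound, both with intervals that include 0.

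List length bears on such a ratio, since the MMTV-CAF SG list was the longest and the Wound WT list, with 33465 summits, the shortest of the 6. With every list reduced to its 33465 strongest summits the Jaccard was 0.407 in SG against 0.437 in WT for MEF and MMTV-CAF, 0.424 against 0.457 for MEF and Wound, and 0.374 against 0.429 for MMTV-CAF and Wound. The gap for MMTV-CAF and Wound thus went from -0.0157 to -0.0548, the widest of the 3 pairs. It was wider still among the strongest summits. At 5000 summits per list this pair had 0.327 in SG and 0.459 in WT, and at 2000 it had 0.235 and 0.357. MEF and MMTV-CAF were nearly level at 10000 summits, with 0.452 in SG and 0.458 in WT and an interval of the difference from -0.0174 to 0.00611. At the other lengths SG was the lower in all 3 pairs. In WT the most alike pair was MMTV-CAF and Wound at 2000, 5000 and 10000 summits, with 0.524 against 0.499 for MEF and Wound at 10000.

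**Figure D1:**
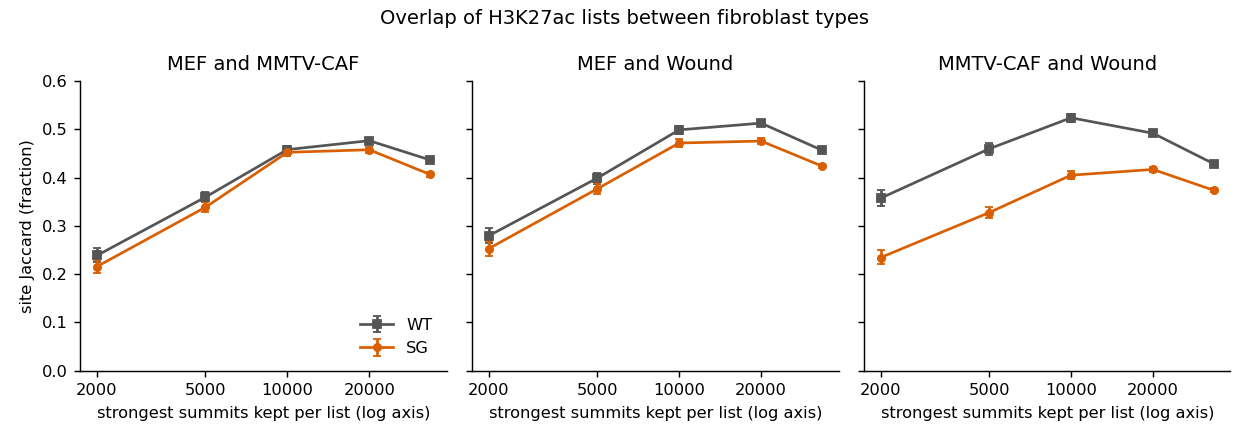
Site Jaccard (fraction) of each pair of cell types against the number of strongest summits kept per list (log axis), in SG (circles) and WT (squares), with 95% counting intervals. SG lies below WT at each length, by the widest margin for MMTV-CAF and Wound, where 5000 summits gave 0.327 against 0.459, and by the narrowest for MEF and MMTV-CAF at 10000, where the interval of the difference includes 0.

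Of the 3 WT lists, a type's full SG list was most like its own in MEF (0.526), MMTV-CAF (0.427) and Wound (0.414). At 2000 summits MMTV-CAF SG had 0.308 with its own WT list and 0.312 with Wound WT. The margin was small in Wound, whose SG list had 0.410 with MEF WT, and 0.455 with its own WT list against 0.433 with MEF WT in equal-size lists. In full lists the Wound WT list had 0.414 with MEF SG. On average over pairs, the Jaccard was 0.455 between the 2 genotypes of 1 type, 0.360 between types within SG, 0.387 between types within WT and 0.372 between types across genotypes. In equal-size lists the same averages were 0.489, 0.401, 0.441 and 0.421, so 2 SG lists of different types were on average also less alike than an SG and a WT list of different types.

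Promoters and distal sites differed in this respect. Sites with a summit within 1 kb of an annotated transcription start site (TSS) were lower in SG for all 3 pairs: 0.641 against 0.662 for MEF and MMTV-CAF, 0.663 against 0.718 for MEF and Wound, and 0.617 against 0.644 for MMTV-CAF and Wound. Among distal sites MEF and MMTV-CAF were again lower in SG, 0.263 against 0.310. MEF and Wound were higher in SG, 0.299 against 0.287, and MMTV-CAF and Wound had 0.240 against 0.235, where the interval of the difference, -0.000508 to 0.00984, includes 0. With 19396 distal summits per list the SG value was the lower in all 3 pairs, by differences of -0.0365, -0.0146 and -0.0604. Promoters made up 42.0% of the summits of the Wound WT list and 24.5% to 32.5% of the other 5 lists of the comparison.

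The H3K4me3 regions, a separate set of libraries, gave a Jaccard of 0.433 in SG and 0.481 in WT for MEF and MMTV-CAF, and 0.665 against 0.759 for MEF and Wound. For MMTV-CAF and Wound the values were 0.462 and 0.464, which counting error could not separate. With the 14668 strongest regions of each list, SG was lower in each pair: 0.741 against 0.752, 0.792 against 0.823, and 0.714 against 0.726. The gap was narrower than in full lists for the pairs with MEF. For MMTV-CAF and Wound it was wider, with a difference of -0.0121 against -0.00238 in full lists. The direction was that of the H3K27ac lists. The values of the 2 marks are not on one scale, since H3K4me3 regions keep their own widths.

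The share of one SG list found in another depended on where a summit lay and how strong it was. Of MEF SG summits, 63.1% had an MMTV-CAF SG summit within 500 bp and 57.4% a Wound SG summit. Of MMTV-CAF SG summits, 44.5% were in MEF SG and 42.5% in Wound SG, and of Wound SG summits 57.3% were in MEF SG and 59.9% in MMTV-CAF SG. Over these 6 directions the share was 73.5% to 82.5% of promoter summits and 32.4% to 54.1% of distal ones. It was 76.8% to 86.7% in the strongest quartile of each list and 18.6% to 40.3% in the weakest. Sites that were present in all 6 lists, 14341 in number, were compared by strength. The Spearman correlation of their −log10 p, given as a description over sites that share the same 6 libraries, was 0.763, 0.749 and 0.784 between SG and WT of MEF, MMTV-CAF and Wound. Between types it was 0.639, 0.686 and 0.604 in SG and 0.643, 0.690 and 0.749 in WT, for MEF and MMTV-CAF, MEF and Wound, and MMTV-CAF and Wound in turn. Across types and genotypes it ran as high as 0.749, for MEF SG and Wound WT, which is the value of MMTV-CAF with its own WT list. The MMTV-CAF and Wound pair had the widest gap between SG and WT, as it had in the Jaccard of equal-size lists.

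Of the 84655 SG sites, 19170 (22.6%) were in all 3 types. MMTV-CAF alone held 26135 (30.9%), Wound alone 11324 (13.4%) and MEF alone 9967 (11.8%). The rest were in 2 types: 7154 in MEF and MMTV-CAF, 5996 in MMTV-CAF and Wound, and 4909 in MEF and Wound. Sites confined to 1 type were mostly distal and weak. The median −log10 p was 12.1 (MEF), 12.6 (MMTV-CAF) and 11.3 (Wound), against 53.5 at sites of all 3 types, and 11.2%, 8.83% and 12.1% lay within 1 kb of a TSS, against 51.0%. A −log10 p over 20 was reached by 2194, 5815 and 1958 confined sites. In equal-size lists 26.6% of SG sites and 30.6% of WT sites were in all 3 types, and the confined shares in SG came close to each other, at 15.4%, 18.5% and 17.5% for MEF, MMTV-CAF and Wound. The surplus of MMTV-CAF sites in the full lists therefore moved with the length of that list. On the autosomes, the part of a type's SG sites that were confined ran from 21.8% to 30.4% (MEF), 39.2% to 51.1% (MMTV-CAF) and 22.3% to 32.1% (Wound), so the confined sites were spread over the genome.

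The WT libraries took no part in choosing the confined SG sites and show how far a difference was present with Prrx1 intact. Of MEF-confined SG sites, 42.5% (41.6% to 43.5%) had a summit in MEF WT, as against 26.4% in MMTV-CAF WT and 17.6% in Wound WT. Of MMTV-CAF-confined sites, 31.1% (30.5% to 31.6%) had one in MMTV-CAF WT, 11.8% in MEF WT and 7.87% in Wound WT. In both types a site was most often listed in the WT library of its own type. Wound-confined sites did not follow this in the full lists: 19.3% (18.6% to 20.03%) were in Wound WT, 18.7% in MEF WT and 22.6% in MMTV-CAF WT. In equal-size lists they did, with 27.1% in Wound WT, 18.3% in MEF WT and 18.9% in MMTV-CAF WT. Where the own SG summit had a −log10 p of at least 10, the shares in the own WT list were 50.4%, 34.8% and 26.5% for MEF, MMTV-CAF and Wound. For Wound this was again the largest share, beside 25.1% in MMTV-CAF WT, whose interval overlaps it, and 22.9% in MEF WT.

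**Figure D2:**
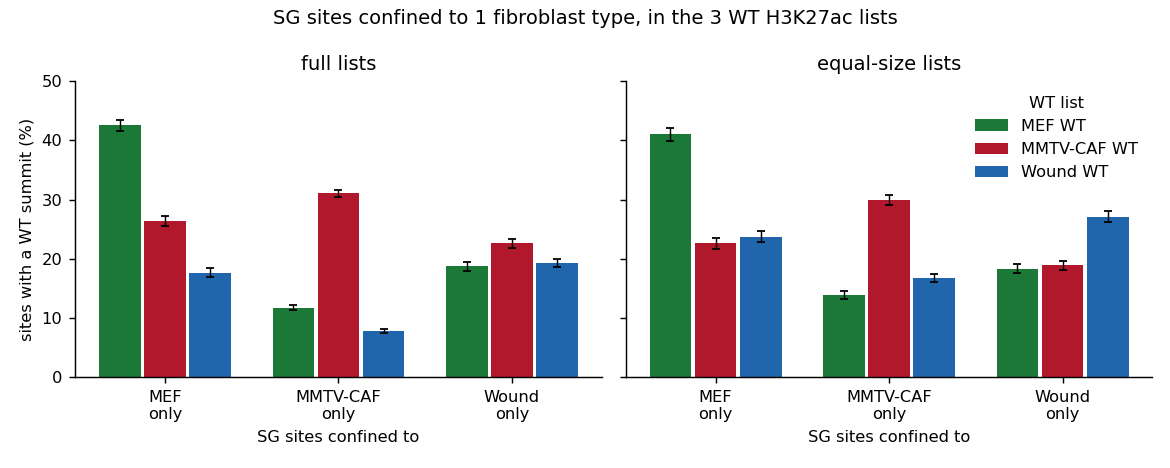
Percent of SG sites confined to 1 type (x axis) with a summit in the WT list of each type (bar colour), with 95% counting intervals, in full lists (left) and equal-size lists (right). The own WT list holds the largest share for MEF (42.5%) and MMTV-CAF (31.1%) in full lists, and of the 2 panels for Wound in equal-size lists alone (27.1%).

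The share found again differed with strength. Among MEF-confined sites 66.9% of the strongest quartile and 25.3% of the weakest were in MEF WT. In MMTV-CAF the shares were 45.7% and 22.4%, and in Wound 42.6% and 7.95%. Sites listed in the own type alone in both genotypes, made up 21.9% of MEF-confined, 22.02% of MMTV-CAF-confined and 8.70% of Wound-confined SG sites. No WT list held 40.6%, 61.0% and 57.5% of them, and a single library cannot tell a site gained in SG from one that missed the peak caller's threshold in WT. The KI line, the other Prrx1 mutant, had a summit at 19.1% of MEF-confined sites, 11.98% of Wound-confined, 8.17% of MMTV-CAF-confined and 63.0% of sites of all 3 types. The KI list was shorter (29325 summits) and weaker (median −log10 p 11.9) than the others.

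In the other direction, WT sites confined to 1 type were followed into SG. They remained confined to that type for 18.9%, 27.3% and 17.1% of MEF, MMTV-CAF and Wound sites, and were in no SG list for 39.2%, 43.6% and 40.9%. Only 4.16% of them were in all 3 SG lists, whereas 76.2% of the WT sites of all 3 types were again in all 3.

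H3K4me3 and Prrx1 binding were read out at the confined sites from libraries that did not choose them. At distal MMTV-CAF-confined sites, an H3K4me3 region of MMTV-CAF SG lay over 35.1%, of Wound SG over 11.5% and of MEF SG over 6.70%. At distal Wound-confined sites it was 21.4% in Wound SG, 9.50% in MEF SG and 23.3% in MMTV-CAF SG. At distal MEF-confined sites MEF SG had the lowest share, 9.42%, against 20.1% in MMTV-CAF SG and 11.5% in Wound SG. The MMTV-CAF SG list was by far the longest H3K4me3 list, with 29166 regions against 14668 in MEF SG and 19641 in Wound SG, and it covered 64.3% of the distal sites of all 3 types, against 21.95% and 32.2%. Prrx1, mapped in WT cells alone, had a summit at 3.22% of MMTV-CAF-confined sites in MMTV-CAF, at 2.61% of Wound-confined sites in Wound and at 0.933% of MEF-confined sites in MEF. At sites of all 3 types the shares were 11.5%, 7.88% and 1.34%. Among distal sites alone they were 3.06%, 2.24% and 1.01% of confined sites and 12.6%, 7.15% and 2.21% of sites of all 3 types. Sites that distinguished the deleted types had thus less often been bound by Prrx1 in WT cells of the same type than the common sites. The common sites were also the stronger ones, and the part of strength in this was not tested.

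Genes were compared by the number of SG summits in the gene body with 10 kb on each side. A gene was called unequal where the highest of the 3 counts was at least 3 and at least 3 times the lowest. Of 22367 protein-coding genes, 3302 (14.8%) were unequal between types in SG and 2961 (13.2%) in WT. MMTV-CAF had the highest SG count at 2004 of them, Wound at 599 and MEF at 468, with 231 ties. Unequal in both genotypes with the same highest type were 740 genes, which is 3.31% of all: 551 highest in MMTV-CAF, 144 in MEF and 45 in Wound. In equal-size lists 2164 genes (9.67%) were unequal in SG, now 701 highest in Wound, 666 in MMTV-CAF and 606 in MEF, and 361 (1.61%) were so in both genotypes with the same highest type, 140, 121 and 100 of them in MEF, MMTV-CAF and Wound. The 2 list lengths had 1466 unequal SG genes in common. A surplus of MMTV-CAF genes thus again went with the longer list.

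The genes named here were unequal in SG and in WT with the same highest type, and had 0 SG summits in another type. Of such genes they were those with the highest SG counts. In MEF, Eya1, a cofactor of homeobox proteins in organ formation, had 9, 0 and 4 SG summits in MEF, MMTV-CAF and Wound, and 9, 0 and 1 in WT. Bmpr1b, a BMP receptor, had 8, 0 and 3 in SG and 12, 0 and 2 in WT. Nid2, which encodes the basement membrane protein nidogen-2, had 8, 0 and 3 in SG and 9, 0 and 2 in WT. In these 3 genes MMTV-CAF had no summit in either genotype. Nhsl1 had 10, 0 and 4 in SG and 6, 0 and 2 in WT, and the actin nucleator Cobl had 9, 0 and 5 in SG and 9, 3 and 1 in WT. The order of the types was MEF, Wound, MMTV-CAF for all 5 genes in SG.

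In MMTV-CAF, Hgf (chr5:16059368-16125257), the hepatocyte growth factor made by mesenchymal cells, had 0, 21 and 1 SG summits in MEF, MMTV-CAF and Wound and 0, 3 and 0 in WT. In equal-size lists it still had 0, 10 and 1 in SG, but 0, 2 and 0 in WT, under the count for a call. The Ugt1a genes, glucuronosyltransferases of drug and steroid clearance that share a locus on chromosome 1, had 0, 19 and 3 in SG and 0, 11 and 1 in WT. Beyond this locus came, named after their values were seen, Gpr98 (0, 18 and 0 in SG, 1, 3 and 0 in WT), the glutamate transporter Slc1a3 (2, 18 and 0 in SG, 9, 11 and 1 in WT) and the integrin subunit Itgb3 (7, 17 and 0 in SG, 6, 11 and 3 in WT). By the rule of choice MMTV-CAF was the highest in both genotypes at each, and at Slc1a3 the gap to MEF was small in WT. In equal-size lists Itgb3 had 6, 7 and 0 in SG and 4, 4 and 3 in WT. It was a tie of MEF and MMTV-CAF in WT there, without a call.

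In Wound, Greb1, known as an oestrogen-responsive gene, had 0, 1 and 17 SG summits in MEF, MMTV-CAF and Wound and 0, 3 and 8 in WT. Pgr (chr9:8900419-8965425), the progesterone receptor, had 0, 0 and 15 in SG and 0, 0 and 3 in WT. Kdr, the VEGF receptor best known in endothelium, had 0, 0 and 9 in SG and 0, 0 and 7 in WT. In equal-size lists the Wound SG counts were 13 at Greb1, 9 at Pgr and 7 at Kdr, and the other types had 0 at all 3. Of the 5 endothelial markers, Kdr, Pecam1 and Cdh5 carried summits in Wound SG, and Tek and Tie1 had 0. The part of such cells in the counts was not tested. Pde3a, a phosphodiesterase, had 1, 0 and 7 in SG and 1, 0 and 4 in WT. Tagap had 0, 2 and 5 in both genotypes, and in equal-size lists its SG counts of 0, 0 and 2 were under a call.

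**Figure D3:**
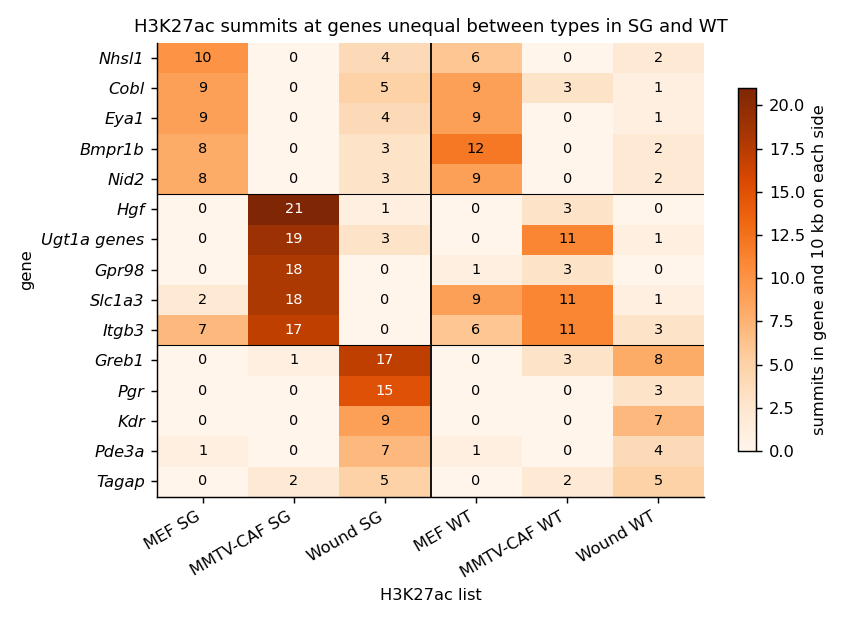
Number of H3K27ac summits (colour and printed value) in each gene with 10 kb on each side, by list, for genes unequal in SG and in WT with the same highest type; lines part the genes highest in MEF, MMTV-CAF and Wound. Hgf had 21 summits in MMTV-CAF SG against 3 in MMTV-CAF WT, and Pgr had 15 in Wound SG against 3 in Wound WT, with 0 in the MEF and MMTV-CAF lists.

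H3K4me3 at the start sites of these genes came from separate libraries. Its width over the TSS of Greb1 was 4277 bp in Wound SG and 2700 bp in Wound WT, and 0 in the MEF and MMTV-CAF lists. At Pgr it was 5792 bp in Wound SG and 4022 bp in Wound WT, with 323 bp in MMTV-CAF WT and 0 in the other lists. At Kdr it was 6173 bp in Wound SG and 5528 bp in Wound WT, against 0 to 1161 bp elsewhere. Hgf was covered in MMTV-CAF alone, over 6821 bp in SG and 4566 bp in WT. Eya1 was covered in MEF, over 4076 bp in SG and 4312 bp in WT, and in Wound, over 4404 bp in SG and 1339 bp in WT, and not in MMTV-CAF. At Greb1, Pgr, Kdr and Hgf the widest H3K4me3 region was in the type with the most H3K27ac summits, and at Eya1 MEF and Wound were both covered. At the MEF genes Nhsl1, Cobl, Bmpr1b and Nid2 the widest SG region was in Wound. It was 1540, 1469, 1796 and 1923 bp there, against 1287, 1261, 1542 and 1831 bp in MEF SG. At Slc1a3, Itgb3, Pde3a and Tagap the widest SG region was in the type with the most SG summits. Gpr98 had no region in any list.

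Positional genes were examined list by list, against the 14.8% of all genes that were unequal in SG. The windows of neighbouring Hox genes overlap, so the same summits were counted for several of them. Of 9 HoxC genes, 6 were unequal in SG, 5 of them highest in MMTV-CAF and 1 a tie. Hoxc10 had 2, 9 and 2 summits in MEF, MMTV-CAF and Wound SG, and 2, 9 and 8 in WT. Hoxc9 had 7, 9 and 1 in SG and 4, 8 and 8 in WT, Hoxc11 1, 8 and 1 in SG and 0, 6 and 6 in WT, and Hoxc8 6, 6 and 1 in SG and 4, 5 and 6 in WT. In WT, Wound and MMTV-CAF were alike at Hoxc9, Hoxc10 and Hoxc11 and MEF was lower. In SG, Wound was at the level of MEF or under it at these 4 genes, and MMTV-CAF alone was high at Hoxc10 and Hoxc11. At the 2 other unequal genes Wound lay between the types, with 0, 4 and 2 at Hoxc13 and 0, 3 and 1 at Hoxc12. In equal-size lists 5 of the 9 were unequal in SG, beside 9.67% of all genes.

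The H3K4me3 regions over these genes did not move with the summits in Wound. A region of 28437 bp covered the starts of Hoxc9 and Hoxc10 in MMTV-CAF SG and one of 28250 bp did so in Wound SG, against 28257 bp and 25297 bp in WT. MEF SG had 0 bp at Hoxc9 and 629 bp at Hoxc10, and MEF WT 996 bp and 524 bp. At Hoxc8 the width in Wound was 23081 bp in SG and 3906 bp in WT, and in MEF it was 3545 bp and 3903 bp. Hoxc11 had a region in MMTV-CAF SG alone, of 2636 bp. At Hoxc9 and Hoxc10 H3K4me3 thus differed between MEF and the other types in both genotypes, while the H3K27ac summits of Wound were fewer in SG.

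In the other clusters fewer genes were unequal: 1 of 11 HoxA, 2 of 10 HoxB and 2 of 9 HoxD genes. Hoxa9 had 9, 8 and 2 SG summits in MEF, MMTV-CAF and Wound and 8, 9 and 14 in WT. Its neighbour Hoxa7 had 8, 6 and 3 in SG and 9, 8 and 12 in WT, and was not called. Hoxa3 had 23, 15 and 21 in SG, and Hoxa2 had 9, 5 and 12, both without a call. Hoxb6 had 3, 11 and 8 in SG and 8, 13 and 20 in WT. Hoxb13, whose protein is among the most posterior, had 3 summits in MMTV-CAF SG and 0 in every other list. At Hoxd3 the counts were 4, 2 and 6 in SG and 8, 3 and 4 in WT. At Hoxa9, Hoxa7 and Hoxb6 Wound had the highest count in WT and a lower one in SG. H3K4me3 in Wound went the other way at these genes. The region over Hoxa9 and Hoxa7 was 32735 bp wide in SG and 20288 bp in WT, and that over Hoxb6 26036 bp and 5755 bp. In equal-size lists 3 HoxA, 0 HoxB and 4 HoxD genes were unequal in SG, beside 9.67% of all genes.

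Of 8 T-box genes 3 were unequal in SG, beside 14.8% of all genes, and 3 in equal-size lists, beside 9.67%. Tbx18 had 1, 8 and 1 summits in SG and 1, 6 and 1 in WT, and an H3K4me3 region of 7753 bp in MMTV-CAF SG, as against 3422 bp in MEF SG and 2152 bp in Wound SG. Tbx15, a factor of limb, skin and skeletal patterning, had 2, 8 and 7 in SG and 3, 8 and 3 in WT, and its H3K4me3 region was 18193 bp wide in MMTV-CAF SG, against 2416 bp in MEF SG and 3190 bp in Wound SG. In equal-size lists Tbx15 had 1, 5 and 6 summits in SG, highest in Wound. Tbx2 had 4, 2 and 1 in SG and 0, 1 and 0 in WT. Tbx18 was thus the T-box gene whose pattern was the same in both genotypes.

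Among 28 factors of limb, body wall and face, 10 were unequal in SG, 5 highest in MEF, 4 in Wound and 1 in MMTV-CAF. In WT 6 were unequal. Of all genes 14.8% were unequal in SG and 13.2% in WT. In equal-size lists 8 of the 28 were unequal in SG, beside 9.67% of all genes. Meis1, a partner of Hox proteins, had 20, 4 and 6 summits in MEF, MMTV-CAF and Wound SG, and 24, 5 and 10 in WT. In equal-size lists it had 13, 3 and 5 in SG and 19, 2 and 10 in WT, which kept the order of the types. Its H3K4me3 region was narrowest in MMTV-CAF, at 4782 bp in SG and 5152 bp in WT. Prrx2, the paralogue of Prrx1, had 13, 19 and 3 in SG and 14, 8 and 6 in WT, and in equal-size lists 11, 10 and 2 in SG and 9, 7 and 6 in WT, highest in MEF in both. Only 1 of the 10 was highest in MMTV-CAF, although that list was the longest.

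Of 14 forkhead and GATA factors found in the annotation 5 were unequal in SG, beside 14.8% of all genes, and 4 in equal-size lists, beside 9.67%. Foxf2, a forkhead factor of mesenchyme, had 1, 17 and 6 summits in SG and 2, 4 and 3 in WT, and an H3K4me3 region of 11436 bp in MMTV-CAF SG against 6409 bp in MMTV-CAF WT. Foxp1 had 13, 40 and 16 in SG and 19, 23 and 12 in WT. Gata4 had 1, 6 and 3 in SG and 0 in every WT list. Foxf2, Foxp1 and Gata4 were unequal in SG and not in WT in full lists. In equal-size lists Foxp1 (8, 15 and 11 in SG) and Gata4 (0, 2 and 2) were not called, and Foxf2 was called in both genotypes, with 1, 8 and 4 in SG and 1, 2 and 3 in WT, highest in different types.

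**Figure D4:**
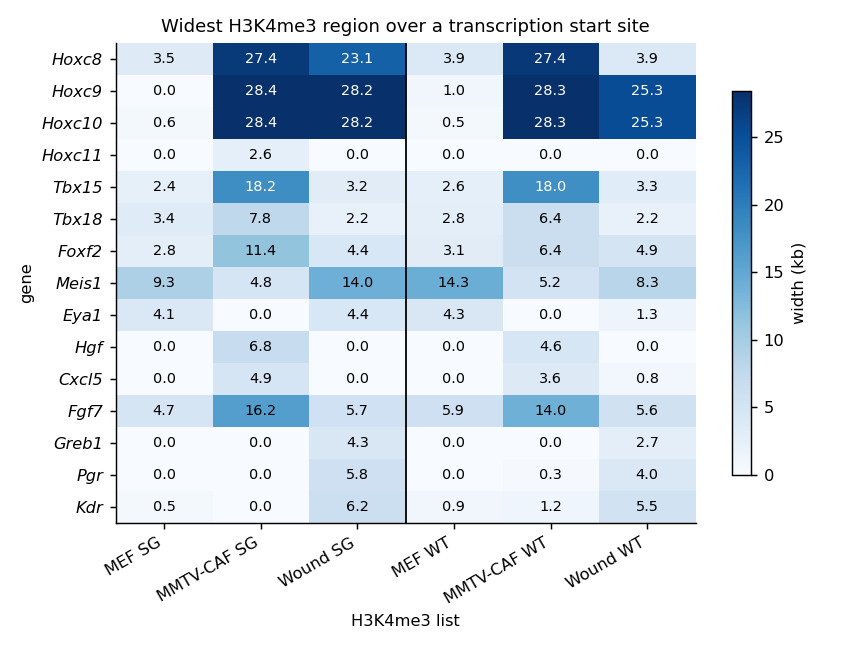
Width in kb (colour and printed value, 0 for none) of the widest H3K4me3 region over a TSS of each gene, by list. Hoxc9 and Hoxc10 were covered over 28437 bp in MMTV-CAF SG and 28250 bp in Wound SG and over at most 996 bp in MEF, Hgf was covered in MMTV-CAF alone and Greb1 in Wound alone.

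Of 25 mesenchymal and skeletal factors, 8 were unequal in SG, 7 of them highest in MMTV-CAF, and 13 in WT, beside 14.8% and 13.2% of all genes, of which 6 were the same call in both. Sox5, a factor of cartilage, had 5, 49 and 15 summits in SG and 5, 6 and 2 in WT. Ebf1 had 4, 24 and 10 in SG and 10, 30 and 4 in WT, and Nfix, a nuclear factor I protein, 24, 45 and 13 in SG and 16, 49 and 39 in WT. Runx2, the osteoblast factor, had 19, 45 and 22 in SG and was not called. In equal-size SG lists Sox5 had 3, 19 and 12 and Ebf1 1, 12 and 5, both still unequal, while Nfix had 14, 30 and 12 and was not. Ebf1 and Osr1 were the 2 genes of this list with the same call in both genotypes at both list lengths. Osr1, a factor of early mesenchyme, had 5, 10 and 2 in SG and 4, 9 and 1 in WT.

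Of 26 matrix genes 13 were unequal in SG, 8 highest in MMTV-CAF, 3 in Wound and 2 ties, and 8 in WT, beside 14.8% and 13.2% of all genes. The median difference between the highest and the lowest SG count was 6 for this list and 2 over all genes with an SG summit. Fbn1, which encodes fibrillin-1, had 13, 52 and 10 summits in SG and 21, 61 and 25 in WT. Col1a2, a chain of type I collagen, had 3, 17 and 4 in SG and 6, 24 and 23 in WT, and its H3K4me3 region in MMTV-CAF was 10048 bp in SG and 21610 bp in WT. Col15a1 had 4, 17 and 3 in SG and 5, 6 and 4 in WT, and Col4a1, a basement membrane collagen, 18, 18 and 5 in SG and 9, 25 and 17 in WT. In equal-size lists 6 of the 26 were unequal in SG, beside 9.67% of all genes, and of these 4 genes only Col4a1, with 12, 9 and 4. Col14a1, with 0, 10 and 0 in SG and 2, 12 and 0 in WT, was the 1 matrix gene called in both genotypes at both lengths. It is named for that reason, after its values were seen.

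Of 15 contractile genes 2 were unequal in SG. Tagln, the smooth muscle protein transgelin, had 6, 0 and 1 summits in SG and 3, 4 and 2 in WT, and in equal-size lists 5, 0 and 1 in SG and 3, 1 and 2 in WT. Its H3K4me3 region in MMTV-CAF was 370 bp in SG and 4331 bp in WT, and in MEF and Wound SG it was 2617 and 2564 bp. Cald1 had 35, 47 and 38 in SG, Tpm1 11, 18 and 7, and Actn1 15, 16 and 21, none of them called. The share of contractile genes, 2 of 15, was near the 14.8% of all genes.

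Of 26 cytokines and growth factors 11 were unequal in SG, 8 highest in MMTV-CAF, 2 in MEF and 1 a tie, and 12 in WT, beside the same 14.8% and 13.2%. Besides Hgf, Fgf7, a growth factor of mesenchyme that acts on epithelium, had 10, 38 and 12 summits in SG and 15, 20 and 7 in WT, with an H3K4me3 region of 16156 bp in MMTV-CAF SG against 4740 bp in MEF SG and 5707 bp in Wound SG. Cxcl5, a neutrophil chemokine, had 4, 16 and 2 in SG and 9, 9 and 1 in WT, and its start was covered by H3K4me3 in MMTV-CAF SG alone of the SG lists, over 4879 bp. Fgf2 had 5, 17 and 9 in SG and 7, 23 and 9 in WT. In equal-size lists 10 of the 26 were unequal in SG, beside 9.67% of all genes, Fgf7 with 6, 22 and 8 and Cxcl5 with 2, 12 and 1, while Fgf2 with 4, 8 and 4 was not. None of the 26 was called in both genotypes with the same highest type at that length. Of 5 sex-linked genes 1, Xist, was unequal in SG, with 0, 4 and 1.

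Confined sites of 1 type were joined into domains where they lay no further apart than the default stitching distance of the super-enhancer tool ROSE2. MEF had 6580, of which 163 held 5 or more sites, MMTV-CAF 12161, of which 1061 did, and Wound 7335, of which 182 did. The largest held 12, 62 and 18 sites. The strongest domains of each type, by summed −log10 p, are described next. In MEF, a domain in Vmp1 (chr11:86384559-86419129), which also holds Mir21, had 14, 9 and 8 summits in MEF, MMTV-CAF and Wound SG, and 4, 5 and 18 in WT. Here Wound had the most summits with Prrx1 intact. A domain in Inpp4b (chr8:84363507-84388725), a lipid phosphatase gene, had 12, 1 and 0 in SG and 10, 0 and 0 in WT, and 9 of its 12 confined sites were also confined to MEF in WT. One 43.3 kb from Dlx2 (chr2:71419161-71437106), a homeobox gene of face and forebrain, had 9, 0 and 0 in SG and 5, 0 and 0 in WT. One 138 kb from Gm16140 had 4, 0 and 0 in SG and 4, 0 and 4 in WT, and one at Mrpl33 had 6, 0 and 0 in SG and 6, 1 and 3 in WT. The Inpp4b and Dlx2 domains were MEF domains in both genotypes.

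The MMTV-CAF domains were larger. The one at Tmem189 and Cebpb (chr2:167505211-167617227), a factor of fat and inflammatory gene expression, had 13, 49 and 14 summits in SG and 13, 24 and 13 in WT. The one at Tgfbr3 (chr5:107507109-107682275), the TGF-β co-receptor betaglycan, had 19, 90 and 27 in SG and 17, 75 and 17 in WT, and 29 of its 62 confined sites were confined to MMTV-CAF in WT as well. Gipc2 had 2, 29 and 3 in SG and 8, 14 and 2 in WT, Il16 4, 27 and 7 in SG and 3, 10 and 7 in WT, and the domain of Dut and Fbn1 7, 33 and 6 in SG and 14, 34 and 16 in WT. MMTV-CAF had the most summits in WT too in all 5 in full lists. In equal-size WT lists the Il16 domain had 3, 5 and 7, highest in Wound, and the other 4 were still highest in MMTV-CAF. In Wound, a domain at Btbd3 (chr2:138067954-138107554) had 1, 2 and 17 in SG and 1, 1 and 7 in WT. One in Etv6 (chr6:133986088-134036105), an ETS factor, had 1, 2 and 19 in SG and 4, 1 and 16 in WT, and one 274 kb from Htr2a had 0, 0 and 9 in SG and 0, 0 and 3 in WT. The domain of Slc25a20 and Prkar2a had 4, 6 and 23 in SG and 5, 8 and 8 in WT.

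Super-enhancers, dense groups of enhancers at identity genes, were approximated by joining summits over the same distance and ranking the groups by summed −log10 p. They numbered 1251, 1149 and 1390 in MEF, MMTV-CAF and Wound SG. Of these 42.0%, 44.9% and 37.8% overlapped a super-enhancer of both other types, against 37.4%, 41.4% and 63.2% in WT. MEF and MMTV-CAF were higher in SG and Wound was much lower, but the Wound WT list gave 777 super-enhancers only, against 1330 and 1168. With the 500 top groups of each list the SG shares were 38.0%, 37.0% and 37.6% and the WT shares 42.0%, 41.2% and 42.2%, lower in SG for every type but with overlapping intervals. With stitching within 5 kb, MEF was higher in SG (31.8% against 22.3%), MMTV-CAF nearly level (28.8% against 27.3%) and Wound lower (24.5% against 40.0%). In equal-size lists the shares were 38.5% against 37.1%, 45.4% against 48.2% and 37.1% against 51.5%. Wound was lower in SG under all 4 definitions, and MEF and MMTV-CAF had no fixed direction. In neither other type were 314 (25.1%), 346 (30.1%) and 425 (30.6%) of the MEF, MMTV-CAF and Wound SG super-enhancers, and 42.4%, 31.8% and 12.2% of these were super-enhancers of the same type in WT. Another type had a WT super-enhancer at 26.4%, 16.8% and 28.5% of them, a share that pools 2 WT lists, and the Wound WT list held the fewest super-enhancers. Most were not empty elsewhere: 3, 11 and 9 of them had no summit group of any rank in both other SG lists.

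**Figure D5:**
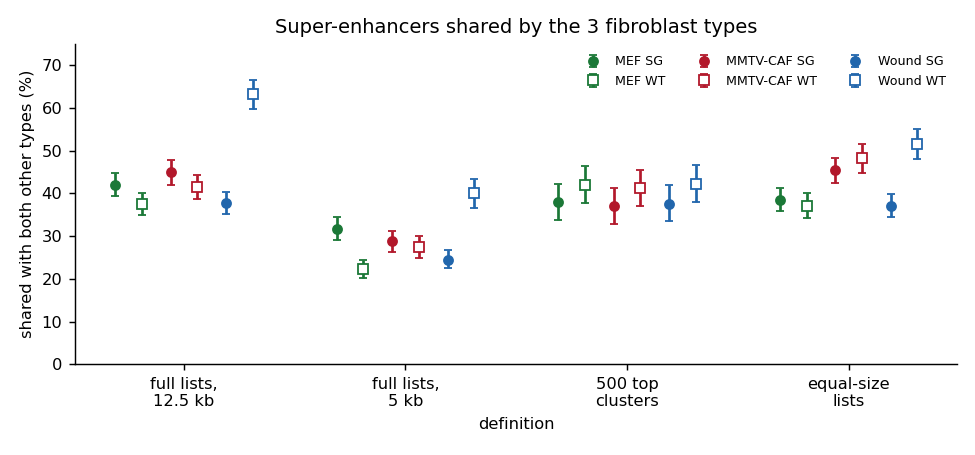
Percent of super-enhancers that overlap one of both other types, in SG (filled circles) and WT (open squares), with 95% counting intervals, for 4 definitions on the x axis. Wound WT stands at 63.2% in full lists, where it has 777 super-enhancers, and at 42.2% with 500 groups per list, where the SG values (37.0% to 38.0%) lie under the WT values (41.2% to 42.2%).

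Short words of transcription factor families were counted within 100 bp of distal confined SG summits, on both strands, and around positions 2 kb to either side. The 12 words were TGANTCA for AP-1 factors, GGAATG for TEAD factors, TAATTA for homeodomain proteins, TGATTNAT for pairs of HOX and PBX, TTTATNG for posterior HOX proteins, TGTGGT for RUNX factors, TTGGCA for nuclear factor I, CATCTG for the TWIST type of E-box, TTGCNNAA for C/EBP factors, AGATAA for zinc fingers of the GATA family, TGTTTAC for forkhead factors and ACAATGG for SOX factors. The words of the homeodomain and HOX group can overlap. No word was much more frequent at the summits than 2 kb away. The positions 2 kb away were not matched to the summits in base composition. The part of base composition in these shares was not tested, so they cannot show whether a word was favoured or avoided. The highest ratio was that of CATCTG in MMTV-CAF, with 17.7% of confined sites against 15.1% away, beside 15.9% at MEF-confined and 16.0% at Wound-confined sites. TAATTA, the core word of homeodomain proteins such as Prrx1, was at 2.64% of MEF-confined, 2.66% of MMTV-CAF-confined and 4.56% of Wound-confined sites, against 5.33%, 5.24% and 6.01% away. TTTATNG was at 5.77%, 6.56% and 9.04%, against 10.2%, 10.1% and 10.2% away. At sites of all 3 types, with the summits of Wound, TAATTA was at 2.83% and TTTATNG at 6.43%, so that Wound-confined sites held both words more often than the common sites. The Wound sites confined in both genotypes did not, at 2.62% and 5.49% of 801 sites. A word is a match of letters and not a bound site.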

How the data were processed

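ChIP-seq peak lists of 3 fibroblast types, 1 library per group, were used; groups came from the sample titles. Per the submitters' processing notes and the study's methods, Trimmomatic, Bowtie and MACS2 served for trimming, alignment to mm9 and peak calling against input. Their deposited H3K27ac and Prrx1 lists hold summits with a −log10 p, and the H3K4me3 lists they deposited consist of broad regions, each with a ratio (fold enrichment), a −log10 p and a −log10 q. Read totals are not in the lists, so the depth is unknown. The lowest −log10 p was 5.00 in the SG H3K27ac lists.

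The members and gene lists were chosen with earlier results of these data known. Windows of 250 bp on each side of summits were merged, so that summits within 500 bp shared a site. Coordinates are 1-based mm9; sequence came from NCBIM37, the same build, and genes from GENCODE vM1. Equal-size lists kept the strongest summits by −log10 p. Shares carry Wilson 95% intervals and differences of shares Newcombe intervals. From each gene list at most the 4 genes with the largest spread of SG counts were named. Of all genes, the 5 per type with the highest SG count were named. They were taken from genes unequal in SG and in WT with the same highest type and 0 SG summits in another type. The 5 top domains per type and the strongest sites confined in both genotypes were named by rank. Other genes were named after their values were seen. Some items that these rules would name are not reported here. Foxf1 was not found under that name in the annotation used.

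Alternatives were a distance of 250 bp or 1 kb, a −log10 p of at least 10, equal-size lists, autosomes only, other gene windows and calls, stitching within 5 kb and the 500 top groups. Promoter and distal subsets were added after the data were seen. Scripts were tested on simulated lists. The tools were Python (3.11.15) with pandas (2.3.3) and numpy (2.4.6) for tables, scipy (1.17.1) for intervals, pysam (0.24.0) for sequence and matplotlib (3.10.9) for plots.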

Additional observations from a re-analysis of the deposited data

Results flagged for a closer look

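In full lists the likeness of the types at distal sites differed between SG and WT in opposite directions across pairs. The distal site Jaccard differed, SG minus WT, by -0.0468 for MEF and MMTV-CAF, by 0.0125 for MEF and Wound and by 0.00467 for MMTV-CAF and Wound, where the interval includes 0. In distal lists of equal size all 3 differences were negative (-0.0365, -0.0146 and -0.0604). The share of super-enhancers common to all 3 types also differed in opposite directions, SG minus WT, by 4.60, 3.47 and -25.4 percentage points for MEF, MMTV-CAF and Wound. With the 500 top groups of each list the share was lower in SG for all 3 types, and in equal-size lists it was lower for MMTV-CAF (45.4% against 48.2%) and Wound (37.1% against 51.5%). With 1 library per group these differences between types were not tested. The Wound WT list, the shortest H3K27ac list of the 6, enters the pairs with Wound and the Wound value.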

How the results depend on the processing

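Differences in Jaccard are SG minus WT. For MEF and MMTV-CAF the value was -0.0369 with summits shared within 250 bp, -0.0301 in equal-size lists, -0.0365 for distal equal-size lists and -0.0211 at promoters. For MEF and Wound it was -0.0288 at 250 bp, 0.00256 at 1 kb, -0.0109 with a −log10 p of at least 10, -0.0328 in equal-size lists, 0.0125 at distal sites and -0.0550 at promoters, so 1 kb and distal sites reversed it. For MMTV-CAF and Wound it was -0.0266 at 250 bp, -0.00604 at 1 kb, -0.0548 in equal-size lists, 0.00467 at distal sites (reversed), -0.0604 for distal equal-size lists and -0.0271 at promoters. The share of SG sites in all 3 types was 16.0% at 250 bp, 33.9% at 1 kb, 24.1% with a −log10 p of at least 10 and 26.6% in equal-size lists. Confined SG sites were in their own WT list for 40.1% (250 bp), 46.7% (1 kb), 41.0% (equal-size) and 50.4% (own −log10 p of at least 10) in MEF, for 27.2%, 36.0%, 29.9% and 34.8% in MMTV-CAF, and for 17.9%, 17.95%, 27.1% and 26.5% in Wound, and with a −log10 p of at least 10 in every list for 29.0% in MMTV-CAF and 17.4% in Wound. Unequal SG genes numbered 2164 in equal-size lists and 862 where the highest count was at least 5 and at least 5 times the lowest. The SG super-enhancers common to all 3 types were 41.3% of 3790, 28.0% with stitching within 5 kb and 37.5% with 500 groups per list. The cause of the reversals was not tested. Of the alternatives chosen with the design 15 moved a value by no more than its counting error or count limit, 30 moved it further and 1 reversed it. No paired analysis was possible because each group has 1 library without a replicate number, and the results compare lists between types, which a block by type would take out. Depth is unknown, so a site missing from a list may be below the caller's threshold there.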

Other observations

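Promoters were also told apart by H3K4me3 alone, over all genes of the annotation. A region lay over the start of 10781 genes in all 3 SG lists and 10898 in all 3 WT lists. In SG, 598 genes were covered in Wound alone, 389 in MMTV-CAF alone and 68 in MEF alone, and the same single type held 41.6%, 32.6% and 35.3% of these genes in WT. Regions wider than 4 kb, called broad, covered the starts of 710 genes in all 3 SG lists. MMTV-CAF alone had broad regions at 1172 genes in SG, and 57.8% (55.0% to 60.6%) of them were broad in MMTV-CAF alone in WT too. Wound alone had them at 268 genes in SG, of which 7.46% (4.88% to 11.2%) were broad in Wound alone in WT, and MEF alone at 12, of which 4 were. The number of broad regions in a list was 1679 in Wound SG and 949 in Wound WT, and its part in the low share was not tested.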
